A study of Homo sapiens with 24 samples.

Results

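The 40 cell cycle and mitosis genes described here were chosen by symbol, as genes of S phase, mitosis and their control whose transcripts reflect how actively a culture divides, and all 40 were present among the 61551 genes counted. They comprise 8 regulators of G1 (D-type and E-type cyclins, the CDK inhibitors CDKN1A and CDKN1B, and E2F1), 12 genes of replication licensing and S phase, and 20 genes of G2 and mitosis. Cyclin-dependent kinases (CDKs) drive the cell cycle when bound to cyclins. D-type and E-type cyclins act in G1 and free E2F transcription factors, which switch on the genes of DNA replication, and a later wave of transcription through FOXM1 and the MuvB complex supplies the kinases and motors of mitosis. Pluripotent stem cells are known for a short G1 phase, which lengthens when they enter differentiation.

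RNA was sequenced from H9 cells, an established line of human embryonic stem cells (hESCs), in 4 genotypes. HAR123 is a human accelerated region, a conserved noncoding element that changed quickly in the human lineage, and it lies in an intron of SMG6. Cells labelled hHAR123 were unedited, HAR123-KO cells had lost both copies by CRISPR-Cas9 deletion, and cHAR123 and mHAR123 cells carried the chimpanzee or mouse ortholog in its place. Each genotype was sampled untreated, as hESCs, and as neuroectoderm, after 5 days in medium with knockout serum replacement, Noggin (a BMP antagonist) and SB431542 (an inhibitor of activin and TGF-β receptors). Each of the 8 groups had 3 libraries, 24 in all. The study describes a pair of clones per genotype, but the clone behind each library is not given in the sources used here. With 3 libraries per group, some of them must share a clone. The p-values below therefore measure the spread between these libraries, which is in part within a clone and may be technical in part. Effects of genotype cannot be told apart from those of the clones or of the editing itself. HAR123 is not exonic, so gene counts do not show whether it was deleted.

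Library totals ranged from 21022748 to 35198684 counts, and every one of the 40 genes passed the filter on low counts in all 15 comparisons, with at least 70 counts in each library. For neuroectoderm, the genotype names of the study's supplementary table and those of the count columns are crossed: within 0.1%, the 117 base means listed under cHAR123 fitted the mHAR123 columns and the 114 listed under mHAR123 fitted the cHAR123 columns, whereas hESC columns fitted their own labels. Neuroectoderm libraries of these genotypes are therefore called the libraries labelled cHAR123 and mHAR123. Comparisons of stage in these genotypes join hESC and neuroectoderm columns by label, so they were also run with the neuroectoderm labels exchanged, an alternative chosen after seeing the data. The 8 pluripotency markers summed to 4815 to 5185 CPM (counts scaled to a fixed library total) in hESCs and 1519 to 1761 CPM in neuroectoderm. In hHAR123 all 8 were lower in neuroectoderm at an edgeR adjusted p under 0.01 (39.7% of genes tested). Their median log2 fold change was −6.50, and TDGF1, UTF1 and PRDM14 were under 1 CPM there. The 8 neuroectoderm markers rose from at most 38.6 CPM to at least 529 CPM. In HAR123-KO neuroectoderm these markers summed to 529 to 540 CPM with SIX3, LHX2, RAX and SIX6 under 1 CPM, against 1220 to 1234 CPM in hHAR123 with SIX6 alone under 1 CPM. The 8 neural crest markers summed to 1758 to 1769 CPM in HAR123-KO neuroectoderm, 119 to 126 CPM in hHAR123, 282 to 294 CPM under the label cHAR123 and 325 to 332 CPM under the label mHAR123.

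The promoters of genes with different behaviour are shown first, because the waves of G1/S and G2/M transcription are known to act through short promoter elements. The 250 bases before the RefSeq gene start (GRCh38.p14) were available for 5 of the 8 G1 genes, 10 of the 12 replication genes and 15 of the 20 G2 and mitosis genes. They were searched on both strands for the cell cycle genes homology region (CHR, spelled TTTGAA in one form and TTCGAA in another), the CCAAT box and the E2F site, with matches allowed to overlap. The E2F site was searched as the letters TTCCCGC, then as the letters TTCGCGC, then as the letters TTGCCGC and also as the letters TTGGCGC. A CHR was found in 8 of 15 G2 and mitosis promoters (53.3%) and 1 of 10 replication promoters, against 14.3% of all 35116 promoters in the table. A CCAAT box was found in 13 of the 15 (86.7%) and in 6 of the 10 (60.0%), against 32.0% of all. An E2F site was found in 6 of the 10 replication promoters (60.0%) and 2 of the 15 G2 and mitosis promoters, against 10.9% of all. Printed below, 5′ to 3′ on the strand of the gene with all matches in capitals, are the promoters of 3 mitosis genes, CDC20 (chr1:43358731-43358980, plus strand), MKI67 (chr10:128126424-128126673, minus strand) and TOP2A (chr17:40417897-40418146, minus strand), followed by those of 2 licensing genes, MCM6 (chr2:135876444-135876693, minus strand) and CDT1 (chr16:88803539-88803788, plus strand). Each window ends at the base before the annotated gene, outside its exons and introns.
CDC20: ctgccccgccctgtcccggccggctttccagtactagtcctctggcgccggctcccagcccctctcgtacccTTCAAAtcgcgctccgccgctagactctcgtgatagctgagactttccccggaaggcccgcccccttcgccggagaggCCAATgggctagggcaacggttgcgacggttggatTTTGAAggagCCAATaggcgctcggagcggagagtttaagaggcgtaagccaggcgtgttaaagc
MKI67: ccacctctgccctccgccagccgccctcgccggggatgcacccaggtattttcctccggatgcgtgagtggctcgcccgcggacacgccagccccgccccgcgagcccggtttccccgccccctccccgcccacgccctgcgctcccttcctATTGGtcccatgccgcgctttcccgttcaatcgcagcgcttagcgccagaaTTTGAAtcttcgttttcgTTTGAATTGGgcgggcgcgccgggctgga
TOP2A: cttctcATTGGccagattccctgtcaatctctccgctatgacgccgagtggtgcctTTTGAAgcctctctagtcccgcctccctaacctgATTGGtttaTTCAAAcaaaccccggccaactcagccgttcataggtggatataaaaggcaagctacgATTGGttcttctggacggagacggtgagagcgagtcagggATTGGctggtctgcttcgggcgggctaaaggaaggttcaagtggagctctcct
MCM6: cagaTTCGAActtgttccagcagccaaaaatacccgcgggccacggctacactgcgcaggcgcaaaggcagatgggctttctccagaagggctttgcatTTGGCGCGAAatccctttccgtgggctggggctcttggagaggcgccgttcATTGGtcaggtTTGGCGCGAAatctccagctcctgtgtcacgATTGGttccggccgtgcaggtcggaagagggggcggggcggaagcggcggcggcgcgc
CDT1: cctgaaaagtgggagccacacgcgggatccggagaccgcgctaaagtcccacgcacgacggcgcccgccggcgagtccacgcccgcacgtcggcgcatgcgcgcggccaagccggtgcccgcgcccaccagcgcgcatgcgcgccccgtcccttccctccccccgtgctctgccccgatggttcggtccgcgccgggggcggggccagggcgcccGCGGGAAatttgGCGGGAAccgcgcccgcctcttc
CDC20, MKI67 and TOP2A each held 2 CHR matches, with 2, 2 and 4 CCAAT matches and no E2F match. In MKI67 the second CHR overlapped a CCAAT box read on the other strand. MCM6 held 4 E2F matches in 2 overlapping pairs beside 1 CHR and 2 CCAAT boxes, and CDT1 held 2 E2F matches alone. These are matches of letters and not shown to be bound sites.

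The first comparison asked how the genes changed from hESCs to neuroectoderm. In hHAR123 cells, 34 of the 40 were lower in neuroectoderm and 2 were higher at an adjusted p under 0.01 in edgeR's quasi-likelihood test, where 39.7% of the 22280 genes tested were lower and 40.3% higher. The median log2 fold change of the 40 was −1.13, against 0.05 over all genes tested. With an absolute log2 fold change over 1 as well, 23 were differentially expressed genes (DEGs), where 45.9% of genes tested were, and 21 of these were lower, where 21.2% were. In bulk RNA, fewer dividing cells and less RNA per dividing cell cannot be told apart. Levels below are CPM of the library total, whereas fold changes come from the fit, which scales libraries by TMM, and for the stage comparisons total-count scaling would add 0.29 (hHAR123), 0.20 (HAR123-KO), 0.21 (cHAR123) and 0.17 (mHAR123) to every log2 fold change, those of all genes included.

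Replication genes fell most as a group: 11 of 12 were lower in hHAR123 neuroectoderm, all 11 of them DEGs, with a median log2 fold change of −1.53. No replication gene was higher by edgeR, where all 12 had an unadjusted p under 0.05 and a log2 fold change below 0, or by DESeq2. CDT1, which loads the replicative helicase, was at 120.3, 123 and 114 CPM in hESCs and at 40.3, 42.2 and 40.1 CPM in neuroectoderm. All neuroectoderm libraries thus lay below every hESC library, and CDT1 fell by 1.83 (log2 fold change −1.83, standard error 0.043, edgeR adjusted p = 6.21e-32). MCM2, a subunit of the MCM2 to MCM7 helicase, was at 257, 249 and 252 CPM in hESCs and at 135, 141 and 152 CPM in neuroectoderm, a smaller fall of 2.17-fold (log2 fold change −1.12, standard error 0.037, edgeR adjusted p = 7.67e-27). The library kit was directional, but strand was not stated for the counting. Of the exon bases of MCM2, 23.6% overlap a gene on the opposite strand. If strand was not used, reads of the 2 genes may not be told apart there, and the share of such reads was not measured. The other helicase subunits, MCM3 to MCM7, fell by 1.24 (MCM6) to 1.80 (MCM3) on the log2 scale. The exception was TYMS, the thymidylate synthase that makes dTMP, at −0.10 on the log2 scale (standard error 0.040, edgeR adjusted p = 0.0198), which became 0.19 under total-count scaling. TYMS is also uncertain, since 47.5% of its exon bases overlap ENOSF1 and TYMSOS on the opposite strand.

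Of the G2 and mitosis genes, 18 of 20 were lower in hHAR123 neuroectoderm, 7 of them DEGs, with a median log2 fold change of −0.89. No gene of this group was higher by edgeR (18 of 20 had an unadjusted p under 0.05) or by DESeq2. CDC20, the activator of the anaphase-promoting complex, was at 188, 178 and 183 CPM in hESCs and at 68.3, 72.9 and 68.7 CPM in neuroectoderm. It fell 3.20-fold (log2 fold change −1.68, standard error 0.038, edgeR adjusted p = 2.30e-32), the largest change of the group. AURKB, the kinase of the chromosomal passenger complex, fell by 1.61, PLK1, a kinase of mitotic entry and spindle assembly, by 1.40, and CCNA2, the cyclin of S phase and G2, by 1.38. MKI67, the source of the Ki-67 antigen, fell by 0.93, from 696 to 718 CPM in hESCs to 452 to 458 CPM in neuroectoderm. Other genes of this group did not pass the test. TOP2A, the topoisomerase that untangles chromosomes, was at 0.02 on the log2 scale (standard error 0.030, edgeR adjusted p = 0.524) and CCNB2, a B-type cyclin, one of −0.03 (standard error 0.040, edgeR adjusted p = 0.515), which became 0.26 under total-count scaling. CENPF, a kinetochore protein, had a log2 fold change of −0.25 with TMM scaling (edgeR adjusted p = 2.69e-10) but of 0.04 with total-count scaling, with 456, 465 and 466 CPM in hESCs and 491, 462 and 474 CPM in neuroectoderm, so its direction depends on the scaling.

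The 8 G1 genes moved both ways. CCNE1, the E-type cyclin that activates CDK2, was at 41.2, 39.8 and 40.9 CPM in hESCs and at 9.04, 8.64 and 8.50 CPM in neuroectoderm. This 5.71-fold fall was the largest change of all 40 genes (log2 fold change −2.51, standard error 0.065, edgeR adjusted p = 1.46e-30). CCNE2, its relative, was at −0.23 on the log2 scale (standard error 0.14, edgeR adjusted p = 0.120), with 37.1% of its exon bases overlapping genes on the opposite strand. All 3 D-type cyclins, the partners of CDK4 and CDK6, were lower: CCND3 fell by 1.65, CCND1 by 0.94 and CCND2 by 0.55 on the log2 scale, and E2F1 fell by 1.15. The CDK inhibitors rose. CDKN1B (p27) was at 20.5, 22.1 and 20.6 CPM in hESCs and at 65.5, 66.7 and 66.7 CPM in neuroectoderm (log2 fold change 1.36, standard error 0.050, edgeR adjusted p = 2.23e-25). CDKN1A (p21) was at 4.23, 3.70 and 3.84 CPM in hESCs and at 16.1, 17.6 and 15.2 CPM in neuroectoderm (log2 fold change 1.77, standard error 0.095, edgeR adjusted p = 9.23e-20). Both inhibitors were thus above every hESC library in every neuroectoderm library of hHAR123.

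**Figure D1:**
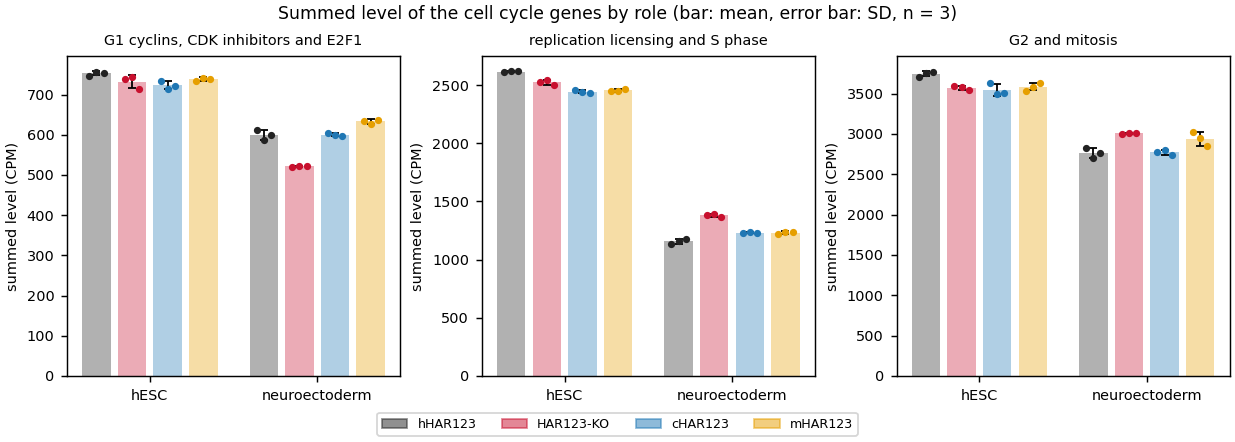
Summed level (CPM of the library total, y axis from 0) of the G1 genes, the replication genes and the G2 and mitosis genes in hESCs and neuroectoderm; bars are means of 3 libraries, error bars the SD and points the libraries. The replication sum fell from 2616 ± 2.39 CPM to 1157 ± 21.4 CPM in hHAR123 (SD, n = 3), and in neuroectoderm it was highest in HAR123-KO at 1380 ± 15.5 CPM.

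Most of the 40 genes also fell with differentiation in each edited genotype. In HAR123-KO, 32 of the 40 were lower and 4 higher in neuroectoderm than in hESCs, where 39.4% of genes tested were lower and 39.8% higher. In cHAR123 34 were lower and 5 higher (39.4% and 39.5% of genes tested), and in mHAR123 also 34 and 5 (39.5% and 39.1%). Of these, 16, 19 and 18 were DEGs in HAR123-KO, cHAR123 and mHAR123, where 41.1%, 42.7% and 41.9% of genes tested were. Leaving out replicate 3 of the cHAR123 hESCs reduced the 5 higher to 3. TOP2A, unchanged in hHAR123, was among the higher genes at 0.12 in HAR123-KO, 0.22 in cHAR123 and 0.31 in mHAR123 on the log2 scale. CCNB2 was among those of cHAR123 and mHAR123, but with the neuroectoderm labels exchanged it did not pass in mHAR123 (0.07). The genes lower in all 4 genotypes numbered 32, also with the neuroectoderm labels exchanged, and the share of all genes lower in all 4 was not counted. CDKN1B was higher in all 4 with either labelling and CDKN1A with the labels as deposited, whereas with labels exchanged CDKN1A was at 0.04 in mHAR123 (edgeR adjusted p = 0.673) and 3 genes were higher there in place of 5. The median log2 fold change of the 40 was −0.87 in HAR123-KO, −0.92 in cHAR123 and −0.86 in mHAR123, each smaller in size than the −1.13 of hHAR123.

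Whether the change differed from that of hHAR123 was then tested gene by gene, as an interaction of stage and genotype over 12 libraries. All 3 tests share the 6 hHAR123 libraries and are therefore not independent of each other. A positive interaction was found for 26 of the 40 in HAR123-KO (18.6% of genes tested), 16 with cHAR123 neuroectoderm as labelled (5.63%) and 24 with mHAR123 neuroectoderm as labelled (9.06%). A negative one was found for 2, 1 and 1 (13.9%, 3.07% and 3.75%). The median interaction of the 40 was 0.26, 0.17 and 0.26 on the log2 scale, with medians over all genes tested of −0.01, −0.01 and 0.00. With the neuroectoderm labels exchanged, the positive counts were 25 for cHAR123 and 15 for mHAR123, and under total-count scaling that for cHAR123 was 10. The stage change was above that of hHAR123 in value for 37 of 40 genes in HAR123-KO, the others being AURKA, CCND2 and CDKN1A, for 37 in cHAR123, the others being CCND3, CDK1 and CDKN1A, and for 39 in mHAR123, all but CDKN1A. With labels exchanged it was 39 in cHAR123 and 37 in mHAR123. How many of all genes lay above hHAR123 in this way was not counted.

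The interaction was positive in all 3 genotypes, with either labelling, for 13 genes (the share of all genes was not counted): CCND1, MCM2, MCM3, MCM4, MCM5, MCM7, RRM2, TYMS, FOXM1, MKI67, CDC20, TPX2 and KIF20A. Among the replication genes in HAR123-KO the largest was that of TYMS, at 0.84 (standard error 0.052, edgeR adjusted p = 4.23e-19), followed by RRM2, the small subunit of ribonucleotide reductase, at 0.50. Among the mitosis genes in HAR123-KO it was that of KIF20A, a kinesin of cytokinesis, at 0.73 (standard error 0.052, edgeR adjusted p = 4.89e-17), followed by AURKB at 0.71 and CDC20 at 0.61. The G1 cyclins divided: the interaction in HAR123-KO was 0.71 for CCNE1 and 0.55 for CCND1, but −0.51 for CCND2 (standard error 0.038, edgeR adjusted p = 2.95e-16). CDKN1A was the only one of the 40 with an interaction past 1 in size, as 7.87%, 0.797% and 0.967% of genes tested had, and it was negative in all 3 genotypes, at −1.11 in HAR123-KO, −1.23 in cHAR123 and −1.53 in mHAR123, passing whichever of the 12 libraries was left out. With labels exchanged it was −1.01 in cHAR123 and −1.74 in mHAR123.

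**Figure D2:**
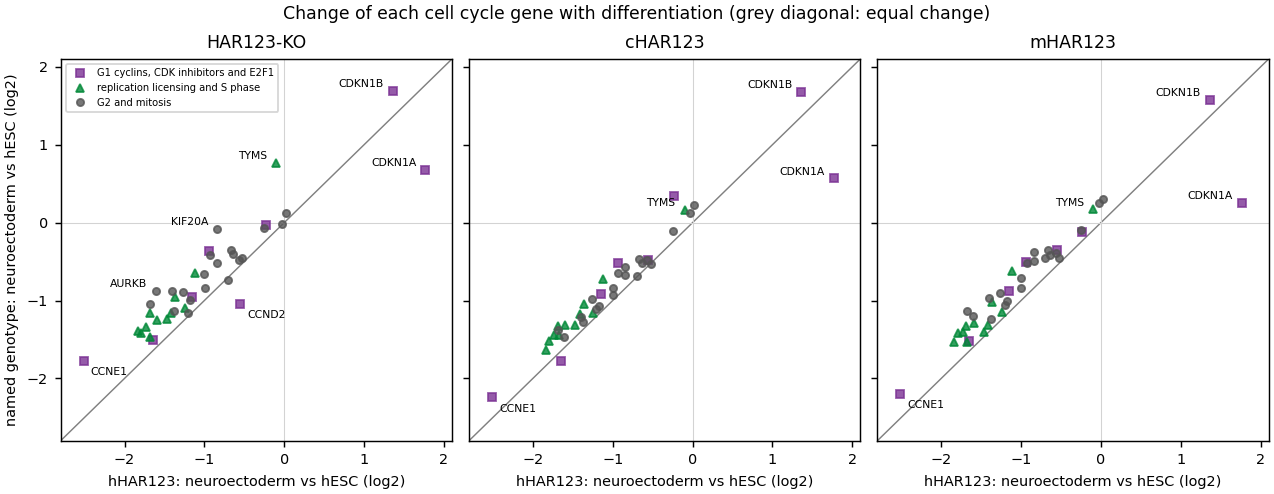
Change from hESCs to neuroectoderm (log2 fold change, edgeR) of each of the 40 genes in HAR123-KO, cHAR123 and mHAR123 (y axes) against the same change in hHAR123 (x axes), with the diagonal marking equal change; the 3 panels share the hHAR123 values. Most genes lie in the lower left and above the diagonal, whereas CDKN1A lies below it in each panel and CCND2 and TYMS stand apart in HAR123-KO.

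The next comparison set the genotypes side by side in neuroectoderm, where HAR123 loss was studied for its effect on neural differentiation. In HAR123-KO neuroectoderm, 24 of the 40 were higher than in hHAR123 neuroectoderm (24.2% of 21362 genes tested) and 3 were lower (19.9%). The differences were small: the median log2 fold change of the 40 was 0.21, against 0.00 over all genes tested, and the largest was 0.69. No gene of the 40 was a DEG by edgeR or by DESeq2, where 9.45% of genes tested were by edgeR, although 31 had an unadjusted p under 0.05 (share of all genes not counted). With any single library of the 6 omitted, 23 to 25 were higher and 2 or 3 lower. Neural crest markers were higher and neuroectoderm markers lower in the same HAR123-KO libraries, with the sums given above. The 8 markers of postmitotic neurons summed to 111 to 116 CPM against 103 to 108 CPM in hHAR123. Taken singly, 2 of these 8 were higher and 3 lower (24.2% and 19.9% of genes tested), with a median log2 fold change of −0.39. The part of these cell types in the differences was not tested.

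Replication genes were higher in HAR123-KO neuroectoderm in 10 of 12 cases, with a median log2 fold change of 0.27. No replication gene was lower by edgeR (all 12 had an unadjusted p under 0.05 and a log2 fold change above 0), and DESeq2 called 2 of all 40 lower. TYMS was at 73.7, 76.2 and 75.8 CPM in hHAR123 and at 117, 117 and 114 CPM in HAR123-KO. The groups did not overlap, and TYMS was 1.60-fold higher (log2 fold change 0.68, standard error 0.038, edgeR adjusted p = 2.16e-21). TYMS also rose during differentiation in HAR123-KO (log2 fold change 0.77, standard error 0.036, edgeR adjusted p = 1.14e-28), unlike the other 11 replication genes, which all fell. This rise was not particular to HAR123-KO. TYMS was higher with stage in cHAR123 (0.16) and mHAR123 (0.17) too, also with the neuroectoderm labels exchanged (0.21 and 0.12). In hHAR123 its stage change was at 0.19 under total-count scaling alone. Between HAR123-KO and hHAR123 neuroectoderm, RRM2 was higher by 0.44 on the log2 scale, CDT1 by 0.39 and MCM2 by 0.31. The other MCM genes were higher by 0.24 to 0.29. PCNA, the sliding clamp of DNA polymerase, was higher by 0.18. CDC6, a licensing factor, and GMNN, the inhibitor of CDT1, had log2 fold changes of 0.15 (edgeR adjusted p = 0.0138) and 0.18 (edgeR adjusted p = 0.0183) and did not pass.

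Of the G2 and mitosis genes, 12 of 20 were higher in HAR123-KO neuroectoderm and 1 was lower, with a median log2 fold change of 0.17. KIF20A was at 61.1, 64.1 and 65.3 CPM in hHAR123 and at 99.9, 97.9 and 100.0 CPM in HAR123-KO. The groups did not overlap and differed 1.62-fold (log2 fold change 0.69, standard error 0.041, edgeR adjusted p = 1.12e-20), and HAR123-KO hESCs were at 90.1 to 92.6 CPM. The stage change of KIF20A in HAR123-KO was −0.08 on the log2 scale (edgeR adjusted p = 0.0204) with TMM and 0.12 with total-count scaling. AURKB was at 36.0, 34.4 and 36.5 CPM in hHAR123 and at 50.8, 56.0 and 57.9 CPM in HAR123-KO (log2 fold change 0.68, standard error 0.052, edgeR adjusted p = 3.05e-16). CDC20 (0.47), PLK1 (0.46), MKI67 (0.37), BIRC5 (0.28), FOXM1 (0.26), UBE2C (0.25) and TPX2 (0.22) were higher as well, and CCNA2 and CCNB1, the cyclins of CDK1, were each higher by 0.17. BIRC5 (survivin) works in one complex with AURKB, FOXM1 is the transcription factor of the mitotic wave, UBE2C is an enzyme of the anaphase-promoting complex, and TPX2 activates AURKA at the spindle. PLK1 and FOXM1 have 12.8% and 15.9% of their exon bases under genes of the opposite strand.

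Other mitosis genes did not move with these. TOP2A was 489, 445 and 459 CPM in hHAR123 and 409, 418 and 417 CPM in HAR123-KO, lower by 0.11 on the log2 scale (standard error 0.030, edgeR adjusted p = 0.00144). CDK1, the mitotic kinase itself, had a value of 0.01 (standard error 0.051, edgeR adjusted p = 0.915), and CCNB2, the spindle checkpoint kinases BUB1 and BUB1B, AURKA and the motors KIF11 and CENPE lay between −0.06 and 0.04 without passing. The CHR matches of CDC20, MKI67 and TOP2A were thus found before genes that were higher and before 1 that was lower.

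The G1 regulators divided. CCNE1 was at 9.04, 8.64 and 8.50 CPM in hHAR123 neuroectoderm and at 12.3, 13.8 and 13.7 CPM in HAR123-KO, 1.58-fold higher (log2 fold change 0.66, standard error 0.088, edgeR adjusted p = 9.00e-09). CCND1 was at 117, 111 and 112 CPM in hHAR123 and at 151, 146 and 156 CPM in HAR123-KO (log2 fold change 0.47, standard error 0.036, edgeR adjusted p = 2.80e-16). CCND2 went the other way, from 351, 329 and 340 CPM to 220.3, 223 and 221 CPM, 1.48-fold lower (log2 fold change −0.57, standard error 0.031, edgeR adjusted p = 5.18e-22). In each of these 3 cyclins the groups did not overlap, and the share of all genes without overlap was not counted. Per length, in TPM (transcripts scaled by gene length to a fixed library total), the ratio of CCND2 to CCND1 was 1.79 ± 0.0183 in hHAR123 neuroectoderm and 0.875 ± 0.0316 in HAR123-KO (SD, n = 3), so the more abundant of the pair by this measure was CCND2 in hHAR123 and CCND1 in HAR123-KO. It was 1.51 ± 0.0171 under the label cHAR123, 1.65 ± 0.0281 under the label mHAR123, and between 1.37 and 1.48 on average in the 4 genotypes of hESCs. The order of the pair rests on the gene lengths, since in CPM CCND2 was above CCND1 in every library, those of HAR123-KO included. Of the exon bases of CCND1, 10.4% overlap LTO1 on the opposite strand. Of the 7988 of CCND2, 999 overlap another gene on the same strand and 2.03% overlap CCND2-AS1 on the opposite strand. CCND3 and E2F1 had log2 fold changes of 0.20 (edgeR adjusted p = 0.0677) and 0.11 (edgeR adjusted p = 0.0654), CCNE2 of 0.19 (edgeR adjusted p = 0.256) and CDKN1B of 0.03 (edgeR adjusted p = 0.640).

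**Figure D3:**
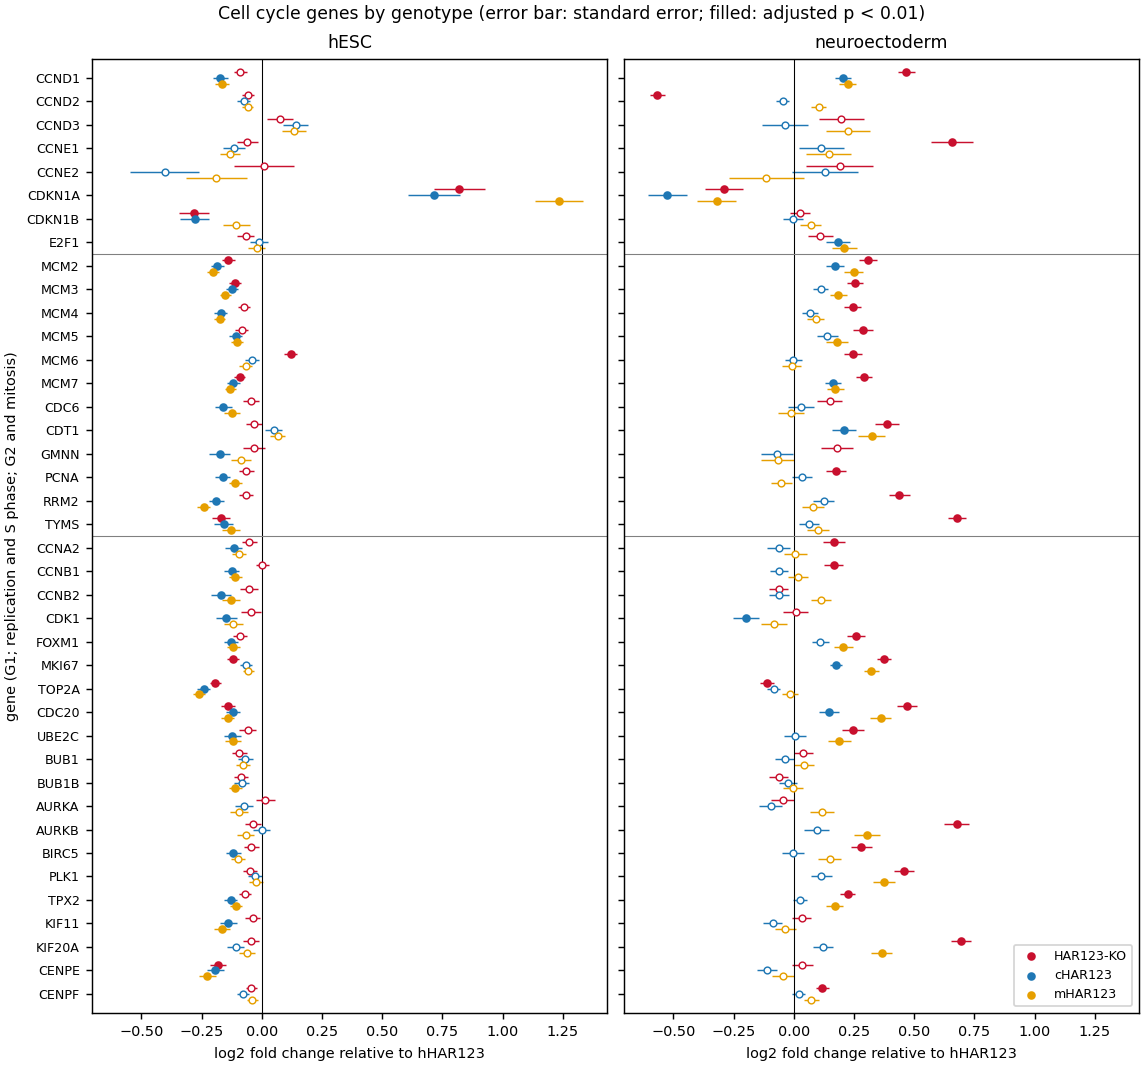
Log2 fold change of each gene relative to hHAR123 in hESCs and in neuroectoderm (x axes), for HAR123-KO, cHAR123 and mHAR123; error bars are the standard error, filled points have an edgeR adjusted p under 0.01, and lines divide G1, replication, and G2 and mitosis genes. In hESCs most points lie slightly left of 0 with CDKN1A to the right; in neuroectoderm most HAR123-KO points lie right of 0, with CCND2 at −0.57.

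Fewer genes differed in the ortholog replacements. In neuroectoderm labelled cHAR123, 7 of the 40 were higher than in hHAR123 (5.9% of genes tested) and 2 were lower (3.99%), with a median log2 fold change of 0.03. The 7 were CDT1 (0.21), CCND1 (0.20), E2F1 (0.18), MKI67 (0.17), MCM2 (0.17), MCM7 (0.16) and CDC20 (0.15), and the 2 were CDKN1A (−0.52) and CDK1 (−0.20). These counts rest on single libraries: without replicate 1 or replicate 3 of the libraries labelled cHAR123 only 4 were higher, 1 was lower without replicate 1 of hHAR123 or without any one of those labelled cHAR123, and 4 were lower without replicate 2 of hHAR123. In neuroectoderm labelled mHAR123, 15 of the 40 were higher (8.8% of genes tested) and 1, CDKN1A, was lower (5.21%), with a median of 0.11. They comprised CCND1, E2F1, 5 of the replication genes and 8 of the G2 and mitosis genes, with the largest values for PLK1 (0.38), KIF20A (0.36) and CDC20 (0.36). The call for CDKN1A was lost without replicate 2 of hHAR123 and without replicate 1 or replicate 2 of the libraries labelled mHAR123, and with DESeq2. No gene of the 40 was a DEG in either comparison by edgeR or DESeq2, where 0.978% and 1.03% of genes tested were by edgeR, with 18 and 24 of the 40 at an unadjusted p under 0.05 (share of all genes not counted).

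CCND1, MCM2, MCM7, CDT1, MKI67 and CDC20 were higher than in hHAR123 in all 3 comparisons of neuroectoderm, which share the same 3 hHAR123 libraries. How many of all genes were higher in all 3 was not counted. MKI67 was at 458, 452 and 455 CPM in hHAR123, at 576, 560.0 and 571 CPM in HAR123-KO, at 506, 515 and 503 CPM under the label cHAR123 and at 568, 552 and 536 CPM under the label mHAR123. All 9 libraries of the edited genotypes were therefore above all 3 of hHAR123.

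A comparison that does not use the hHAR123 libraries set the replacements against HAR123-KO neuroectoderm. In the libraries labelled cHAR123, 27 of the 40 were lower than in HAR123-KO (20.3% of genes tested) and 1, CCND2, was higher (18.8%). The largest differences were those of TYMS (−0.59), KIF20A (−0.55), AURKB (−0.55) and CCNE1 (−0.52), and CCND2 was higher by 0.55. In the libraries labelled mHAR123, 13 were lower (18.7%) and 4 were higher (17.8%), the 4 being CCND2 (0.70), CCNB2 (0.20), AURKA (0.19) and TOP2A (0.12). The medians of the 40 were −0.15 and −0.06, against 0.00 and −0.01 over all genes tested. For MKI67, the log2 fold change against HAR123-KO was −0.17 (edgeR adjusted p = 1.76e-11) under the label cHAR123 and −0.03 (edgeR adjusted p = 0.368) under the label mHAR123.

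**Figure D4:**
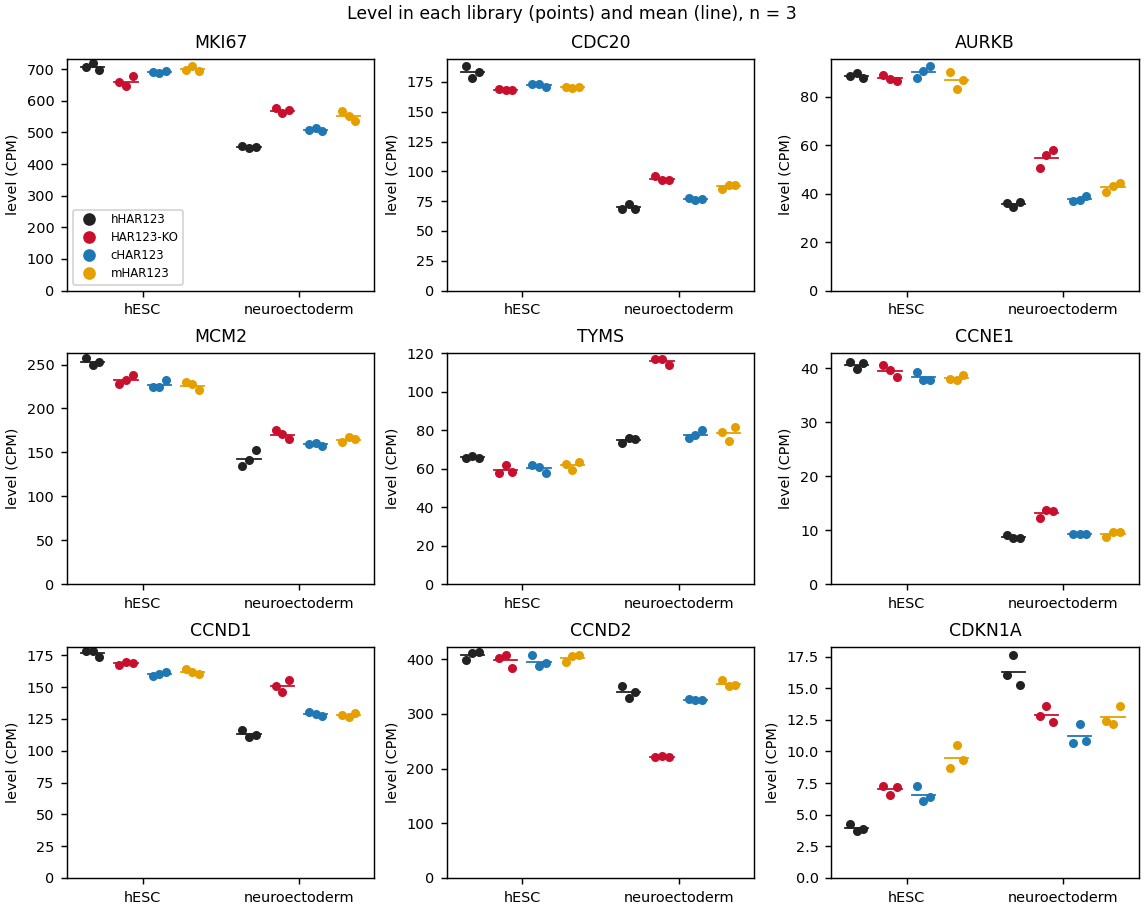
Level (CPM of the library total, y axes from 0) of 9 of the genes in each of the 24 libraries; points are libraries and lines the mean of 3. Cyclin genes CCND1 and CCND2 move in opposite directions in HAR123-KO neuroectoderm, and CDKN1A is lowest in hHAR123 hESCs, at 3.70 to 4.23 CPM, and highest in hHAR123 neuroectoderm, at 15.2 to 17.6 CPM.

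In hESCs, most of the differences that passed went the other way, towards lower levels in the edited genotypes. In HAR123-KO hESCs, 9 of the 40 were lower than in hHAR123 hESCs (5.29% of 20832 genes tested) and 2 were higher (7.06%). In cHAR123 hESCs 24 were lower (8.6%) and 1 higher (7.72%), and in mHAR123 hESCs 20 were lower (10.2%) and 1 higher (9.02%). The medians of the 40 were −0.06, −0.12 and −0.11, against 0.00, 0.01 and 0.01 over all genes tested. CDKN1A in mHAR123 was the sole DEG (1.23% of genes tested), and edgeR and DESeq2 called no DEG among the 40 in HAR123-KO or cHAR123 (1.18% and 0.85% of genes tested by edgeR), where 21 and 34 had an unadjusted p under 0.05 (share of all genes not counted). These counts depended on single libraries and on scaling: without replicate 2 of hHAR123 hESCs the counts of lower genes were 15 in cHAR123 and 13 in mHAR123, without replicate 2 of mHAR123 hESCs 11 in mHAR123, and under total-count scaling 10 in each.

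MCM2, MCM3, MCM7, TYMS, TOP2A, CDC20 and CENPE were lower in all 3 comparisons with hHAR123 hESCs, which again share their controls. How many of all genes were lower in all 3 was not counted. TOP2A was at 366, 376 and 379 CPM in hHAR123 hESCs, at 334, 337 and 324 CPM in HAR123-KO, at 336, 315 and 317 CPM in cHAR123 and at 310.4, 329 and 324 CPM in mHAR123. All 9 libraries of edited cells lay below the 3 of hHAR123, with log2 fold changes of −0.19 (edgeR adjusted p = 4.65e-08), −0.24 (edgeR adjusted p = 4.38e-09) and −0.26 (edgeR adjusted p = 7.65e-12). MCM2, MCM3, TOP2A and CENPE passed in all 3 comparisons whichever single library was left out and with total-count scaling, whereas TYMS, MCM7 and CDC20 each lost at least 1 call in these settings. In HAR123-KO hESCs the others lower were CDKN1B (−0.28) and MKI67 (−0.12), and MCM6 (0.12) was higher beside CDKN1A, a call that was lost without replicate 2 of hHAR123 or replicate 1 of HAR123-KO.

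CDKN1A, the p21 inhibitor of cyclin-CDK complexes and a known target of p53, went against most of the other genes in both stages. In hESCs it was at 4.23, 3.70 and 3.84 CPM in hHAR123, at 7.24, 6.60 and 7.21 CPM in HAR123-KO, at 7.29, 6.05 and 6.39 CPM in cHAR123 and at 8.70, 10.5 and 9.33 CPM in mHAR123. Every edited library was above every hHAR123 library, by log2 fold changes of 0.82 (standard error 0.11, edgeR adjusted p = 8.47e-08), 0.71 (standard error 0.11, edgeR adjusted p = 3.67e-06) and 1.23 (standard error 0.10, edgeR adjusted p = 1.08e-13). In neuroectoderm it was at 16.1, 17.6 and 15.2 CPM in hHAR123, at 12.8, 13.6 and 12.3 CPM in HAR123-KO, at 10.7, 12.2 and 10.9 CPM under the label cHAR123 and at 12.4, 12.2 and 13.6 CPM under the label mHAR123. Here every edited library was below every hHAR123 library, by −0.29 (standard error 0.079, edgeR adjusted p = 0.00165), −0.52 (standard error 0.082, edgeR adjusted p = 5.46e-06) and −0.32 (standard error 0.080, edgeR adjusted p = 0.00290). The call in HAR123-KO neuroectoderm was lost without replicate 2 of hHAR123 (log2 fold change −0.23) or replicate 3 of HAR123-KO (−0.26). The rise of CDKN1A with differentiation was 1.77 on the log2 scale in hHAR123, 0.68 in HAR123-KO, 0.57 in cHAR123 and 0.25 in mHAR123, the last of which lost its call without replicate 1 (0.17) or replicate 3 (0.22) of the mHAR123 hESCs, without replicate 3 of the neuroectoderm labelled mHAR123 (0.21), and with DESeq2 (0.20). With the neuroectoderm labels exchanged, this change was 0.78 in cHAR123 (edgeR adjusted p = 2.56e-10) and 0.04 in mHAR123 (edgeR adjusted p = 0.673).

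A list of 24 other p53 target genes was counted beside CDKN1A. Relative to hHAR123 hESCs, 10 of the 24 were higher in HAR123-KO, 5 in cHAR123 and 18 in mHAR123, where 1 was lower (7.06%, 7.72% and 9.02% of all genes tested were higher, and 10.2% lower in mHAR123), with medians of 0.23, 0.21 and 0.31 on the log2 scale. In neuroectoderm 7 were higher and 6 lower in HAR123-KO, near the 24.2% and 19.9% of all genes tested. Under the label cHAR123 1 was higher and 3 lower (5.9% and 3.99% of all genes tested). Under the label mHAR123 0 were higher and 4 lower (8.8% and 5.21%). The medians, in the same order, were 0.02, −0.02 and −0.03. The 2 with the largest difference in HAR123-KO neuroectoderm were FAS, a death receptor (1.25, edgeR adjusted p = 3.73e-13), and SESN2, a stress-induced inhibitor of mTORC1 signalling (0.61, edgeR adjusted p = 9.84e-13). From hESCs to neuroectoderm in hHAR123, 14 of the 24 were higher and 9 lower (40.3% and 39.7% of all genes tested), led by BTG2, an antiproliferative gene (4.47, edgeR adjusted p = 6.07e-35), and TP53INP1 (2.59, edgeR adjusted p = 1.72e-32).

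Wider lists of the cell cycle were counted as well. Of 33 other S phase genes, 27 were lower and 2 higher in hHAR123 neuroectoderm than in hESCs, where 39.7% and 40.3% of all genes tested were, with a median log2 fold change of −0.70, led by CDCA7 (−2.17, edgeR adjusted p = 8.59e-31). In HAR123-KO neuroectoderm 11 of the 33 were higher than in hHAR123 and 8 were lower, with a median of 0.06, near the 24.2% and 19.9% of all genes tested. Its largest differences were those of CDCA7 (1.36, edgeR adjusted p = 4.79e-25) and UHRF1, which maintains DNA methylation at replication forks (0.60, edgeR adjusted p = 4.72e-19). Of 40 other G2 and mitosis genes, 25 were lower and 8 higher with differentiation in hHAR123 (39.7% and 40.3% of all genes tested, median −0.49), led by RANGAP1 (−1.44, edgeR adjusted p = 4.32e-31) and TUBB4B, a β-tubulin (−1.27, edgeR adjusted p = 1.25e-29). In HAR123-KO neuroectoderm 19 of these 40 were higher and 6 lower than in hHAR123 (24.2% and 19.9% of all genes tested, median 0.10), led by CDCA3 (0.61, edgeR adjusted p = 1.08e-10) and GTSE1 (0.53, edgeR adjusted p = 2.40e-14). Of 23 other G1 regulators, 20 were tested with differentiation in hHAR123, and 6 were higher and 10 lower, against 40.3% and 39.7% of all genes tested, with CDKN1C, the p57 inhibitor, highest (2.23, edgeR adjusted p = 9.55e-31) and CDC25A, the phosphatase that activates CDK2, lowest (−1.52, edgeR adjusted p = 6.07e-30). Of the 21 tested in HAR123-KO neuroectoderm 6 were higher and 3 lower, near the 24.2% and 19.9% of all genes tested and with a median of −0.03, led by CDKN2D, an inhibitor of CDK4 and CDK6 (1.05, edgeR adjusted p = 1.72e-06), and CDK6 itself (0.49, edgeR adjusted p = 3.20e-08).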

How the data were processed

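Paired-end, rRNA-depleted RNA libraries made with a directional kit were sequenced from 24 samples. The authors aligned reads to GRCh38 with STAR 2.5.2b and deposited a table of raw counts per gene made with Subread featureCounts (Ensembl 106 annotation). How multimapping reads and strand were treated in the counting is not given in the sources used here. The table holds 61552 genes, of which 61551 were used, and its counts are raw, without size factors applied. Tables of the study's own comparisons were used only to check the column labels. The 40 genes and the other lists were chosen with earlier results of these data known.

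Each pair of groups was fitted alone in edgeR 4.0.16 (filterByExpr, TMM, quasi-likelihood F-test, Benjamini-Hochberg adjustment over all genes tested, R 4.3.3), with an adjusted p under 0.01 as the threshold and an absolute log2 fold change over 1 for DEGs, as in the study's methods. Standard errors are the absolute log2 fold change over the square root of F. Genes at an unadjusted p under 0.05 were counted among the 40 only, not over all genes tested. The stage by genotype interaction was fitted over 4 groups. Statements that groups of libraries did not overlap describe the printed values, and the share of all genes without overlap was not counted. Alternatives were DESeq2 1.42.0, its size factors, no filter, one fit over all libraries, a replicate block, an adjusted p under 0.05, each library left out and, chosen after seeing the data, scaling by total counts and an exchange of the neuroectoderm labels of cHAR123 and mHAR123. All 40 genes and the 2 largest of each other list were named, except 1 that is not reported here. The fits were tested on simulated data with equal numbers of genes raised and lowered and the same dispersion for every gene. This does not test the choice of scaling. CPM use the library total, and TPM the gene lengths of the deposited table. Intervals of counting error were not needed, with at least 70 counts of each gene in each library.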

Additional observations from a re-analysis of the deposited data

Results flagged for a closer look

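The change from hESCs to neuroectoderm differed between genotypes by a test of the difference itself, the interaction of stage and genotype in edgeR (adjusted p under 0.01). In HAR123-KO against hHAR123 it was positive for 26 of the 40 genes and negative for 2, CDKN1A (−1.11) and CCND2 (−0.51). Of all genes tested there, 18.6% were positive and 13.9% negative. In the libraries labelled cHAR123 it was positive for 16 (5.63% of genes tested) and negative for 1 (3.07%), CDKN1A (−1.23). In those labelled mHAR123 it was positive for 24 (9.06%) and negative for 1 (3.75%), CDKN1A (−1.53). For CDKN1A the adjusted p were 5.71e-10, 2.38e-09 and 5.51e-13. With the neuroectoderm labels of cHAR123 and mHAR123 exchanged, 25 and 15 were positive and CDKN1A was at −1.01 and −1.74. The 3 interactions share the hHAR123 libraries, and groups of 3 libraries are too small for a test of single outlying libraries.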

How the results depend on the processing

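Of 600 log2 fold changes (40 genes in 15 comparisons), 8 reversed with scaling, all in stage comparisons under total-count scaling, which was chosen after seeing the data: CENPF to 0.0432 in hHAR123, 0.13 in HAR123-KO, 0.0948 in cHAR123 and 0.0731 in mHAR123, CCNB2 to 0.26 in hHAR123 and 0.18 in HAR123-KO, TYMS to 0.19 in hHAR123 and KIF20A to 0.12 in HAR123-KO. This scaling also gave 5 genes higher with stage in hHAR123, 7 in HAR123-KO (with 9 DEGs), 10 lower in cHAR123 and in mHAR123 hESCs, 2 higher in mHAR123 hESCs, 2 higher in cHAR123 than HAR123-KO neuroectoderm, and 10 positive interactions for cHAR123. With the neuroectoderm labels of cHAR123 and mHAR123 exchanged, also chosen after seeing the data, 3 genes were higher with stage in mHAR123, 25 interactions were positive for cHAR123 and 15 for mHAR123, and that of AURKA for cHAR123 turned from −0.01 to 0.21. DESeq2 gave 3 genes higher with stage in cHAR123 and in mHAR123, 4 higher and 1 lower in neuroectoderm labelled cHAR123, and 0 lower in that labelled mHAR123. At an adjusted p under 0.05, 16 were lower in HAR123-KO hESCs, 2 higher in cHAR123 and in mHAR123 hESCs, 12 higher in neuroectoderm labelled cHAR123, and 2 higher there than in HAR123-KO. One fit over all 24 libraries gave 14 lower in HAR123-KO hESCs. Leaving out 1 library gave 3 to 5 higher with stage in cHAR123. In hESCs it gave 1 to 2 higher and 6 to 10 lower in HAR123-KO, 15 to 25 lower in cHAR123 and 11 to 19 lower in mHAR123. In neuroectoderm it gave 4 to 8 higher and 1 to 4 lower in the libraries labelled cHAR123, 0 to 1 lower in those labelled mHAR123, and 9 to 11 lower in the latter than in HAR123-KO. With CPM by TMM size, the median level of the 40 genes was 155, 140.2, 139 and 142.0 CPM in hESCs (hHAR123, HAR123-KO, cHAR123, mHAR123) and 67.6, 85.2, 70.5 and 75.3 CPM in neuroectoderm. A replicate block weakened 15 of the 600 calls and strengthened 12. Replicate numbers did not pair the libraries: deviations of same-numbered libraries correlated between −0.172 and 0.201, and in 0 of 28 pairs of groups were all over 0.1. The causes of these shifts were not tested. Scaling bears most on the direction of small stage changes, and single libraries on the counts in hESCs and in neuroectoderm labelled cHAR123.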
